A study of Mus musculus with 30 samples.

Results

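The comparison described here is Foxn1-cre,Nfe2l2 fl/fl against Foxn1-cre,Nfe2l2+/+ medullary thymic epithelial cells of the mature, MHC class II high kind (mTEChi), taken over all genes. It holds 4 of the series' 27 libraries that have files here, 2 labelled flox and 2 labelled wt, and sits among 16 mTEChi libraries that were fitted together as 8 groups of 2. The flox-labelled libraries are C57BL/6J, from female mice 4 to 6 weeks old, with the Foxn1-cre driver and a homozygous floxed Nfe2l2. The wt-labelled libraries match them in strain, sex, age and Foxn1-cre, and carry wild-type Nfe2l2. No treatment is labelled for either group, and mice without Cre are not among the 4 libraries. Foxn1 is active in cortical as well as medullary thymic epithelium, so a Foxn1-driven Cre is not limited to the sorted cells. The other 12 mTEChi libraries, which serve here as a range of levels, are WT cells with topotecan or DMSO, and Aire-KO and WT cells, each with spermidine or PBS.

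Each library was made from 1000 sorted cells. The flox-labelled libraries held 4.29 and 5.72 M gene counts and the wt-labelled libraries 4.78 and 4.40 M, against 2.03 to 3.36 M in the other 12. Thinned to equal depth, 28341 and 28228 genes had a count in the flox-labelled libraries, against 29595 and 28728 in the wt-labelled ones, a gap that 2 against 2 libraries are too few to test at 0.05 by exact permutation. Replicates differed by more than counting error, with a chi-square per degree of freedom of 8.54 in the flox-labelled pair and 8.47 in the wt-labelled pair. The labels do not say whether the 2 libraries of a group came from separate animals, so p-values measure the spread between these libraries, which may be technical. Levels are given as CPM, a gene's counts as a share of its library's total, after TMM scaling, and CPM does not correct for gene length, so levels are compared within a gene. In these bulk libraries fewer cells of a type and less RNA per cell cannot be told apart.

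The cells carried the markers of their label. Aire, the transcriptional regulator that marks this stage, stood at 1664 and 1881 CPM in the flox-labelled libraries and at 1823 and 1930 CPM in the wt-labelled ones. The MHC class II chain H2-Ab1 stood at 20563 and 20442 CPM in flox-labelled against 18912 and 17805 CPM in wt-labelled libraries, and the epithelial adhesion gene Epcam at 1217 and 1049 CPM in flox-labelled against 1057 and 1099 CPM in wt-labelled libraries. Among markers of T cells and of the thymic cortex, Cd3e and Psmb11 were low, while others of the same lists were higher. Cd4 had 19.7 and 16.8 CPM in flox-labelled and 46.1 and 59.6 CPM in wt-labelled libraries. The 9 cortical genes summed to 1922 and 1837 CPM in flox-labelled and 1268 and 1584 CPM in wt-labelled libraries. Cd3e, of the T cell receptor complex, had 2.13 and 2.83 CPM in flox-labelled and 3.83 and 1.16 CPM in wt-labelled libraries. The cortical proteasome subunit Psmb11 had 5.92 and 15.4 CPM in flox-labelled and 9.56 and 9.77 CPM in wt-labelled libraries.

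Nfe2l2 encodes NRF2, a basic leucine zipper factor that pairs with small MAF proteins and binds antioxidant response elements. KEAP1 holds NRF2 in the cytoplasm and passes it to a ubiquitin ligase for destruction, and oxidants or electrophiles relieve that hold. Its known targets make and recycle glutathione and thioredoxin, supply NADPH, conjugate and export foreign compounds, and handle iron and heme. In mTEChi, Aire drives the low-level expression of many tissue-restricted genes, and the series asks how Aire selects its target promoters.

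The core of the antioxidant response element, TGACNNNGC, was searched on both strands of each promoter, from 250 bases before to 50 bases after the RefSeq start site (build GRCm38.p6). It was present in 4071 of 32851 promoters, 12.4%. Of 79 NRF2 target genes 68 matched a RefSeq promoter by symbol, and 21 tested targets had the core there. The 4 promoters below are shown because they belong to the targeted factor and to genes it controls in the glutathione and thioredoxin systems, and the capitals mark the core. They are Nfe2l2 (chr2:75704614-75704913, minus strand, first base of the match at -240 from the start site), Gclm (chr3:122245307-122245606, plus strand, -134), Txnrd1 (chr10:82858956-82859255, plus strand, -92) and Prdx1 (chr4:116685349-116685648, plus strand, -133). A match is a description of these letters and not a binding site.
Nfe2l2: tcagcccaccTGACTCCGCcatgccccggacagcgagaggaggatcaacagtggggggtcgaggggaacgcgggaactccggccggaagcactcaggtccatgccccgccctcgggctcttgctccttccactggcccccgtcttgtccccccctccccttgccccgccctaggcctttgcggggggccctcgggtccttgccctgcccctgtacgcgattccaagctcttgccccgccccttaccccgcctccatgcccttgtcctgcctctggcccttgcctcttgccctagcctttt
Gclm: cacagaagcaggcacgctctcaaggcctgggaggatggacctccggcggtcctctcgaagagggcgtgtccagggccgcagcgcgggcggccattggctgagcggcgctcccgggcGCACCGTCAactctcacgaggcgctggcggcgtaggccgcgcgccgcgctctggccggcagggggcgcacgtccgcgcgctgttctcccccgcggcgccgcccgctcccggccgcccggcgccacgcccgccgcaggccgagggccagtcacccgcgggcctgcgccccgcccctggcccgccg
Txnrd1: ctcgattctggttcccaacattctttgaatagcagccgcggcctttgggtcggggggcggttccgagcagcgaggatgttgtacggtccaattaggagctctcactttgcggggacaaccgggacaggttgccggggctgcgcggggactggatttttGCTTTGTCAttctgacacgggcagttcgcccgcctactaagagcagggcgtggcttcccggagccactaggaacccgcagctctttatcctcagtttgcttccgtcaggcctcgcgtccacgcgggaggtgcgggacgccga
Prdx1: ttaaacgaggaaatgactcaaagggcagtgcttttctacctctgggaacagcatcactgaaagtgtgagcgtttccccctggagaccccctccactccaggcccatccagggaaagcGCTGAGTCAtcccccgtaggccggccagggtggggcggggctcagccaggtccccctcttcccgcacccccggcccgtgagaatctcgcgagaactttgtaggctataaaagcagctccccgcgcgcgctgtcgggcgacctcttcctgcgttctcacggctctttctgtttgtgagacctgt

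Nfe2l2 itself (chr2:75675513-75704641, minus strand, GRCm38) had 105 and 86.6 CPM in the flox-labelled libraries and 90.7 and 91.4 CPM in the wt-labelled ones. The flox-labelled values lie on either side of the wt-labelled pair. The log2 fold change was 0.07 with a standard error of 0.146 and a 95% interval of -0.24 to 0.39 (edgeR quasi-likelihood test, adjusted p = 1). The other 12 mTEChi libraries ranged from 67.7 to 112 CPM. Counts of the whole gene thus do not show the deletion, and the labels do not say which exons the floxed allele removes. A transcript that lacks 1 or more exons can still be counted over the rest of the gene, so these counts do not check the labels, and the libraries are called by their labels throughout. Of 116 tested genes within 10 Mb of Nfe2l2, 2 were higher and 1 was lower in flox-labelled libraries at unadjusted p under 0.05 in edgeR. That is 2.59%, against 5.28% of all tested genes, and the median log2 fold change of the 116 was 0.04.

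**Figure D1:**
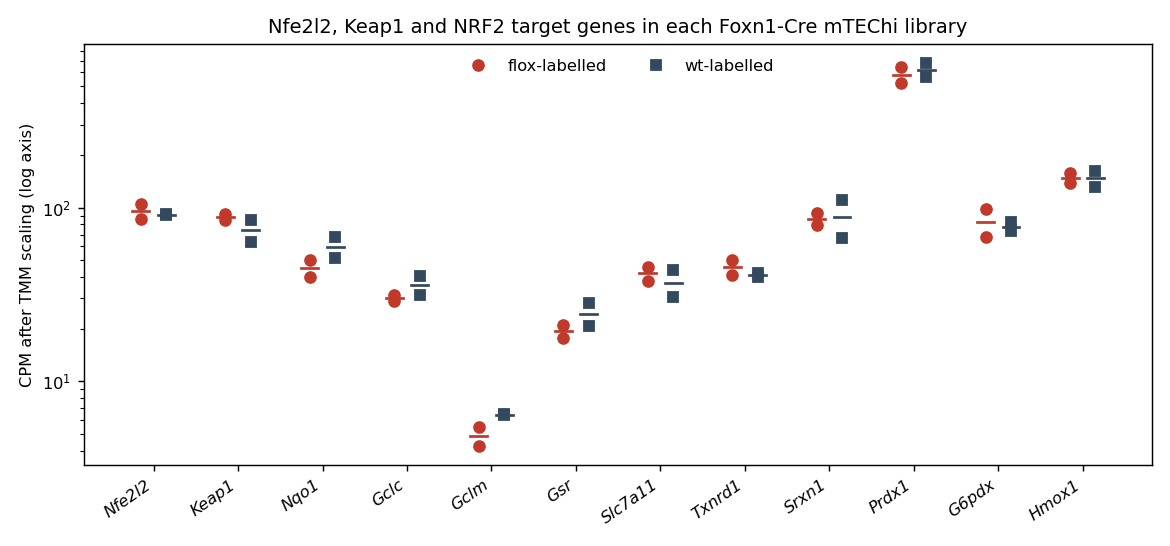
Level in CPM after TMM scaling (log axis) of Nfe2l2, Keap1 and 10 NRF2 target genes, with 1 point per library and a line at each group's mean; circles are flox-labelled and squares wt-labelled libraries. Nfe2l2 sits at 105 and 86.6 CPM in flox-labelled and 90.7 and 91.4 CPM in wt-labelled libraries, and Nqo1 and Gclm are 2 of the genes plotted whose flox-labelled points both lie below the wt-labelled ones.

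Across all genes, 0 of 18418 tested passed an adjusted p of 0.05 in edgeR's quasi-likelihood test (0%), and 0 did in limma-voom, while DESeq2 called 26 (0.141%), 13 in each direction. DESeq2 gave an adjusted p to only 10205 of the 18418 genes, and it could not call a gene without one. Without the filter on low counts edgeR called 134 of 46903 genes (0.286%), and without wt-labelled replicate 1 it called 11. The fit without the filter gave the predicted gene Gm10800 an adjusted p of 2.11e-67, though its wt-labelled libraries held 8975 and 16931 CPM. Calls given below for that fit therefore depend on the filter and are weak support. At unadjusted p under 0.05 edgeR with the filter had 973 genes, 5.28% of those tested, where 921 are expected by chance. Of these, 444 were higher (2.41%) and 529 lower (2.87%) in flox-labelled libraries. The 4 libraries also did not separate by label as wholes. The root mean square distance over the 500 most different genes was 2.60 on the log2 scale within the flox-labelled pair and 2.59 within the wt-labelled pair, against 2.55 to 2.64 between pairs. The median log2 fold change of all tested genes was -0.01.

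What the data could show depended on level. Of 2113 genes over 100 CPM, 95.1% had a 95% interval that stayed within a 2-fold difference in both directions, and of 6419 genes between 20 and 100 CPM, 80.4% did. Between 5 and 20 CPM that share was 19.5%, and between 1 and 5 CPM it was 0.154%. Over all tested genes the interval lay above a 2-fold decrease for 10967 genes, 59.5%, and within 2-fold both ways for 8225, 44.7%. For genes under 20 CPM the interval therefore mostly did not exclude a 2-fold difference. The spread behind these intervals was estimated over all 16 mTEChi libraries. A narrow interval does not mean that a 2-fold difference would be called. Col6a1, with means of 263 CPM in flox-labelled and 129 CPM in wt-labelled libraries, differed 2.04-fold and was not called (edgeR adjusted p = 0.0894).

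**Figure D2:**
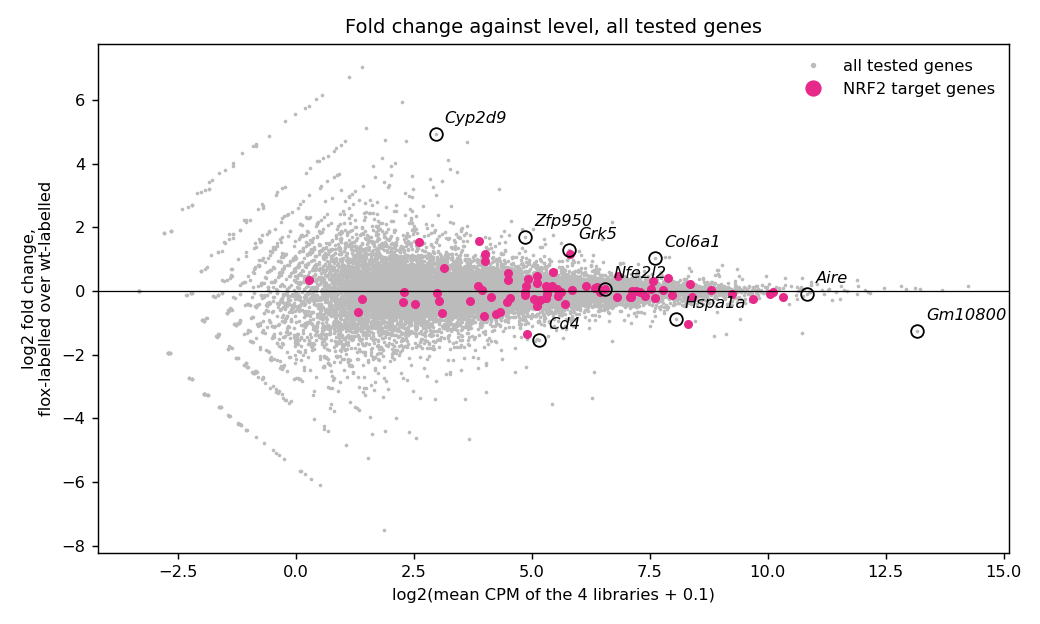
Log2 fold change of flox-labelled over wt-labelled libraries (y) against log2 of the mean CPM of the 4 libraries plus 0.1 (x); each grey point is 1 of 18418 tested genes, pink points are NRF2 target genes, and circled genes are named in the text. The scatter narrows with level, and Aire and Nfe2l2 lie near 0, at -0.08 and 0.07.

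NRF2 target genes were described as a list of 79, of which 77 passed the filter on low counts. The 2 others, Gstp2 and Ugt1a6b, had 5 to 13 reads in each of the 4 libraries. None of the 77 was called by edgeR in either direction, and DESeq2 called none (0). Some of the 77, Gclm and Ggt1 among them, had no DESeq2 adjusted p. Over the 77 genes, 3 were higher and 4 lower at unadjusted p under 0.05, 9.09% against 5.28% of all tested genes. The groups did not overlap with flox-labelled libraries higher for 12 genes and lower for 17, where all tested genes gave 16.5% and 17.4%, or 33.9% in either direction. The median log2 fold change was -0.03, beside -0.01 for all genes. The 95% interval lay above a 2-fold decrease for 56 of the 77 and within 2-fold both ways for 44. Together the targets took 1.02 and 0.964% of counts in flox-labelled libraries and 1.05 and 1.04% in wt-labelled ones.

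**Figure D3:**
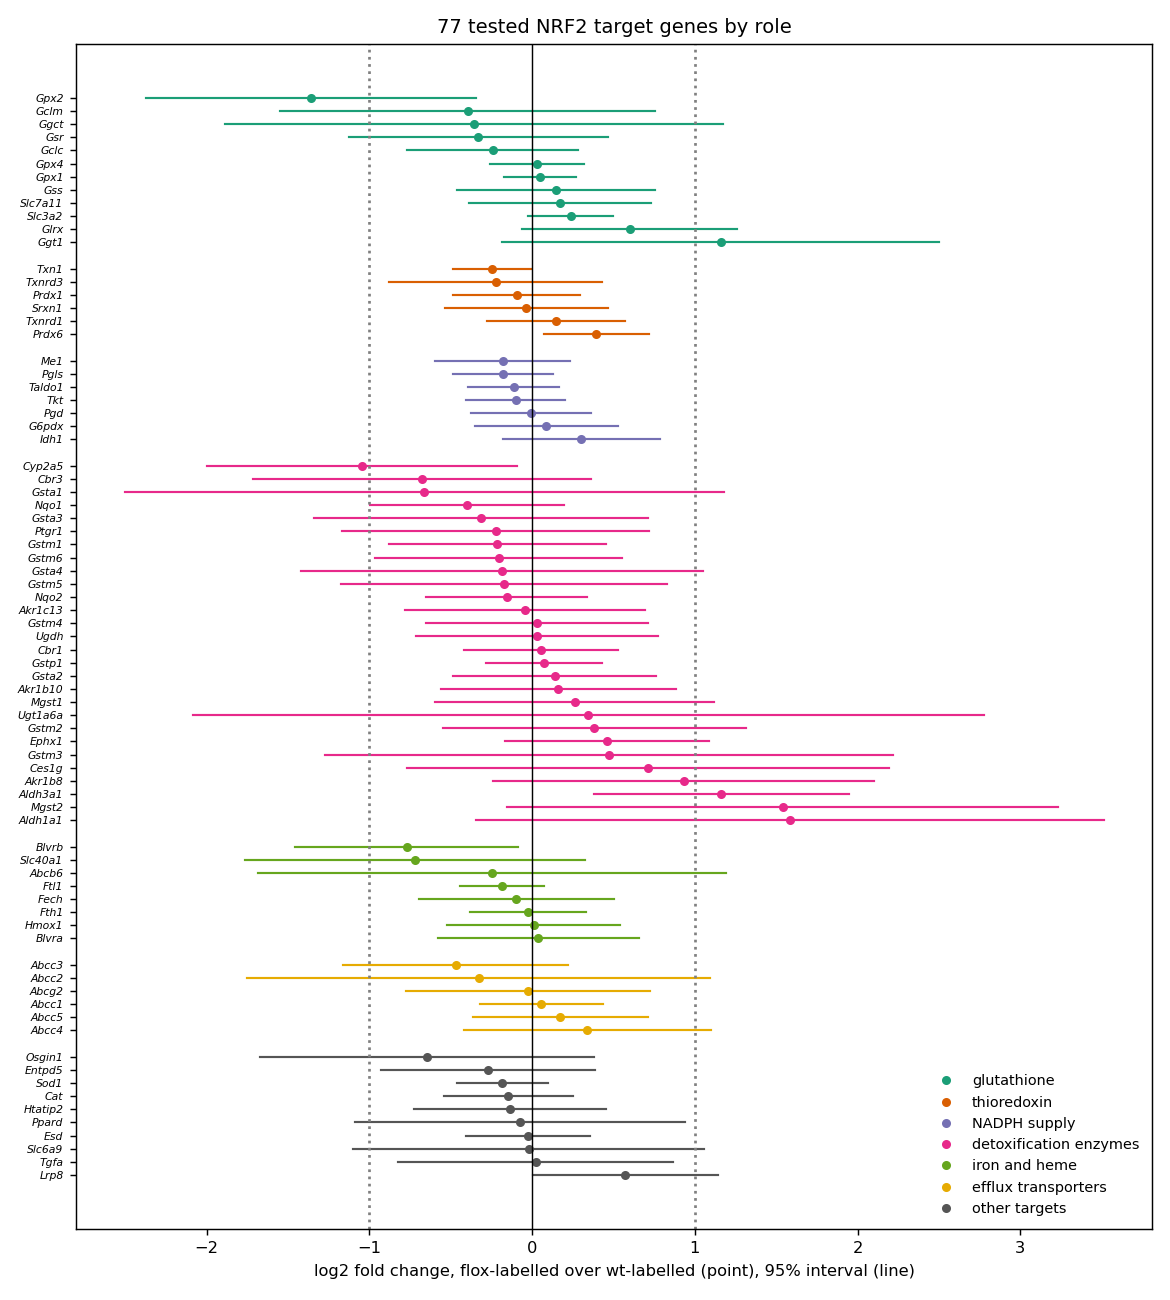
Log2 fold change of flox-labelled over wt-labelled libraries for the 77 tested NRF2 target genes (point) with its 95% interval (line), grouped and coloured by role; dotted lines mark a 2-fold difference. The intervals of 44 genes stay between the dotted lines, and those of Gpx2, Cyp2a5, Blvrb and Txn1 lie below 0 while those of Aldh3a1, Prdx6 and Lrp8 lie above it.

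The regulators of NRF2 come first. Keap1, the cytoplasmic inhibitor, had 91.5 and 85.2 CPM in flox-labelled and 63.3 and 84.9 CPM in wt-labelled libraries, a log2 fold change of 0.25 with an interval of -0.16 to 0.67. Cul3 and Rbx1, which complete the ligase that KEAP1 feeds, stood at -0.14 and 0.14 on the log2 scale. Mafg, a small MAF partner, stood at -0.20, and the related factors Nfe2l1 and Nfe2l3 at 0.05 and -0.17. Sqstm1, the autophagy receptor that competes for KEAP1, had 645 and 713 CPM in flox-labelled and 611 and 696 CPM in wt-labelled libraries.

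Bach1 and Bach2 encode repressors that compete with NRF2 for the same elements. Bach1 had 9.95 and 9.01 CPM in flox-labelled and 15.3 and 14.9 CPM in wt-labelled libraries, a log2 fold change of -0.67 ± 0.300 (SE). Bach2 had 4.03 and 5.30 CPM in flox-labelled and 12.5 and 9.77 CPM in wt-labelled libraries, a log2 fold change of -1.24 ± 0.478 (SE). For both the flox-labelled pair lay below the wt-labelled pair and below the other 12 libraries, which ranged from 15.2 to 24.5 CPM for Bach1 and from 5.67 to 20.4 CPM for Bach2. For Bach1 the wt-labelled library at 14.9 CPM also lay just below that range. Neither gene passed the test, with edgeR adjusted p of 0.922 and 0.863. They were the 2 of 20 regulators and partners at unadjusted p under 0.05, 10% against 5.28% of all tested genes.

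Among the 12 genes of the glutathione system the median log2 fold change was 0.04. Gclc, the catalytic subunit of glutamate-cysteine ligase, had 31.5 and 29.2 CPM in flox-labelled and 31.2 and 40.5 CPM in wt-labelled libraries. Gclm, its modifier subunit, had 4.27 and 5.48 CPM in flox-labelled and 6.38 and 6.51 CPM in wt-labelled libraries, and its log2 fold change of -0.40 came with an interval of -1.55 to 0.76. These 2 subunits thus differed by less than their error. Slc7a11, the cystine importer, had 45.7 and 37.8 CPM in flox-labelled and 30.6 and 43.5 CPM in wt-labelled libraries, and the glutathione reductase Gsr had 21.1 and 17.9 CPM in flox-labelled and 20.8 and 28.1 CPM in wt-labelled libraries.

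Gpx2, a glutathione peroxidase of epithelia, had the lowest fold change among the targets. It stood at 13.3 and 19.97 CPM in flox-labelled and 37.6 and 48.2 CPM in wt-labelled libraries, a log2 fold change of -1.36 with an interval of -2.37 to -0.34 (edgeR adjusted p = 0.791). The groups do not overlap, yet the other 12 libraries spread from 1.55 to 57.4 CPM, which covers both pairs. The abundant peroxidases Gpx1 and Gpx4 stood at 0.05 and 0.03 on the log2 scale with intervals of -0.18 to 0.27 and -0.26 to 0.32.

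The 6 thioredoxin genes were measured closely, and the intervals of all 6 stayed within 2-fold. Txn1, thioredoxin itself, had 751 and 749 CPM in flox-labelled and 882 and 898 CPM in wt-labelled libraries, a log2 fold change of -0.25 with an interval of -0.48 to -0.01. Prdx6, a peroxiredoxin, had 308 and 233 CPM in flox-labelled and 214 and 197 CPM in wt-labelled libraries, a log2 fold change of 0.40 with an interval of 0.07 to 0.72. These 2 genes differed in opposite directions, and edgeR gave them adjusted p of 0.922 and 0.863. Txnrd1, thioredoxin reductase, had 40.8 and 49.8 CPM in flox-labelled and 41.9 and 40.0 CPM in wt-labelled libraries. Srxn1, which repairs overoxidised peroxiredoxins, had 79.9 and 93.0 CPM in flox-labelled and 67.2 and 110 CPM in wt-labelled libraries. Prdx1 had 647 and 521 CPM in flox-labelled and 679 and 567 CPM in wt-labelled libraries, so that for these 3 genes the groups overlapped.

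The 7 genes of NADPH supply lay between -0.18 and 0.30 on the log2 scale, and the intervals of all 7 stayed within 2-fold. G6pdx, the entry enzyme of the pentose phosphate pathway, had 98.4 and 67.3 CPM in flox-labelled and 82.5 and 73.0 CPM in wt-labelled libraries. Me1, malic enzyme, had 122 and 132 CPM in flox-labelled and 116 and 172 CPM in wt-labelled libraries. In both the flox-labelled and wt-labelled values overlapped.

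Of 28 tested detoxification enzymes 1 was higher and 1 lower at unadjusted p under 0.05, 7.14% against 5.28% of all tested genes. Their median was 0.04. Nqo1, the quinone reductase often used to read NRF2 activity, had 50.2 and 40.1 CPM in flox-labelled and 67.6 and 51.4 CPM in wt-labelled libraries. Both flox-labelled values lie below both wt-labelled ones, by a log2 fold change of -0.40 with an interval of -0.998 to 0.20. Aldh3a1, an aldehyde dehydrogenase, had 70.9 and 82.7 CPM in flox-labelled and 37.4 and 31.2 CPM in wt-labelled libraries, a log2 fold change of 1.16 with an interval of 0.38 to 1.95, and the other 12 libraries reached at most 50.7 CPM. Cyp2a5, a cytochrome P450, had 193 and 218 CPM in flox-labelled and 344 and 506 CPM in wt-labelled libraries, a log2 fold change of -1.04 with an interval of -1.996 to -0.09, inside the 95.5 to 812 CPM of the other 12. The edgeR adjusted p was 0.716 for Aldh3a1 and 0.888 for Cyp2a5. Without the filter on low counts edgeR called Cyp2a5 lower, with an adjusted p of 8.31e-08, and Aldh3a1 higher, with an adjusted p of 0.0121. The log2 fold changes in that fit, -1.02 and 1.18, were near those with the filter, so these calls depend on the filter. Glutathione S-transferases share sequence between copies, and the handling of reads shared by such copies is not stated, so single values of that family are uncertain. The transferases Gsta4, Gstm1 and Gstp1 stood at -0.18, -0.21 and 0.07 on the log2 scale.

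The 8 genes of iron and heme handling had a median of -0.14. Hmox1, heme oxygenase, had 159 and 138 CPM in flox-labelled and 131 and 164 CPM in wt-labelled libraries, and its log2 fold change was 0.01. The ferritin chains Fth1 and Ftl1 stood at -0.03 and -0.18, with intervals of -0.38 to 0.33 and -0.44 to 0.07. Blvrb, biliverdin reductase B, had 10.2 and 12.9 CPM in flox-labelled and 24.9 and 14.7 CPM in wt-labelled libraries, a log2 fold change of -0.77 with an interval of -1.45 to -0.09. Blvrb is also abundant in red blood cells, and globin RNA was lower in the same flox-labelled libraries, as given below. Whether red blood cell RNA had a part in the Blvrb difference was not tested.

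Of the 6 efflux transporters none passed an unadjusted p of 0.05 in edgeR (0), and their fold changes lay between -0.47 for Abcc3 and 0.34 for Abcc4 on the log2 scale. Of 10 other targets, Lrp8, a lipoprotein receptor, stood at 0.57 with 21.8 and 31.8 CPM in flox-labelled and 15.5 and 20.7 CPM in wt-labelled libraries. Cat and Sod1, which encode catalase and superoxide dismutase, stood at -0.15 and -0.18. The 21 tested targets with the core TGACNNNGC in a promoter had a median of -0.04. All 2193 tested genes with that core had a median of -0.02, and 5.11% of them had an unadjusted p under 0.05, near the 5.28% of all genes.

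Aire and the transcripts it induces come next. Aire (chr10:78030022-78043610, minus strand) had a log2 fold change of -0.08 with a standard error of 0.135 and an interval of -0.37 to 0.21. Top1, a topoisomerase partner of Aire, had 76.1 and 82.2 CPM in flox-labelled and 88.0 and 72.1 CPM in wt-labelled libraries. The Aire-induced set was taken from other libraries of the series, as 3152 of 17923 genes (17.6%) called and at least 2-fold lower in Aire-KO than in WT B6 Aire-GFP+ cells. Of these 2712 were tested here, and edgeR with the filter on low counts called none (0). DESeq2 called 6 of them, 3 higher and 3 lower, Cd4, Hyou1 and Col6a1 among them, and edgeR without the filter called 55, 30 higher and 25 lower. Over all 18418 tested genes these 2 fits called 26 and 131. At unadjusted p under 0.05 in edgeR, 96 of the 2712 were higher and 84 lower, 6.64% against 5.28% of all tested genes. The median log2 fold change of the Aire-induced genes was -0.02, or -0.12 without flox-labelled replicate 2. They took 7.80 and 8.22% of counts in flox-labelled libraries and 7.97 and 8.07% in wt-labelled ones (two-sided exact permutation p = 1).

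As a scale for that comparison, the summed level of the set was 78771 and 82757 CPM in flox-labelled and 80612 and 82173 CPM in wt-labelled libraries, while the other 12 libraries, 4 of them Aire-KO, ranged from 51210 to 86659 CPM. The 95% interval stayed within 2-fold for 553 of 2712, so the median and the sum carry the comparison rather than single genes. The Aire-repressed set, 1343 genes called and at least 2-fold higher in the same cells (7.49%) of which 1239 were tested, had a median of 0 and 3.87% at unadjusted p under 0.05. A second Aire-induced set, 801 genes lower in Aire-KO PBS mTEChi (4.35% of 18418), had a median of 0.05 with 61 higher and 38 lower at unadjusted p under 0.05, 12.4% against 5.28% of all tested genes. It shares 528 genes with the first set, and it was defined in the fit that also holds the Foxn1-Cre libraries. Genes called in that fit tend to have a small estimated spread, which the flox and wt comparison shares. The choice of the set can therefore itself raise the 12.4%, and no conclusion is drawn from that share.

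**Figure D4:**
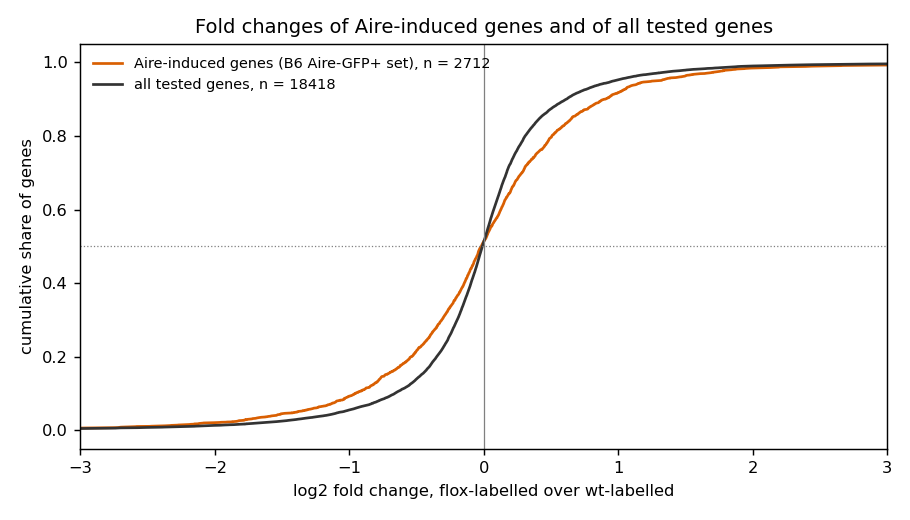
Cumulative share of genes (y) against the log2 fold change of flox-labelled over wt-labelled libraries (x) for 2712 tested Aire-induced genes and all 18418 tested genes. Both curves cross the middle close to 0, at medians of -0.02 and -0.01, and the Aire-induced curve is the broader one.

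Single Aire targets varied in both directions. Reg3g, an antimicrobial lectin of the gut, had 2839 and 2306 CPM in flox-labelled and 2104 and 2835 CPM in wt-labelled libraries, and Csn2, beta-casein of milk, had 1057 and 1156 CPM in flox-labelled and 1261 and 1054 CPM in wt-labelled libraries. Of 27 tested classic targets, Crp, the acute-phase protein, was higher at unadjusted p under 0.05, with 38.2 and 47.0 CPM in flox-labelled and 20.2 and 26.3 CPM in wt-labelled libraries. Amelx, an enamel matrix protein, was lower, with 5.69 and 9.19 CPM in flox-labelled and 27.2 and 39.5 CPM in wt-labelled libraries. The median of the 27 was -0.06, and edgeR gave Crp and Amelx, picked after their values were seen, adjusted p of 0.773 and 0.863. These 2 are 7.41% of the 27, against 5.28% of all tested genes at unadjusted p under 0.05. The 333 tested Aire-induced genes with TGACNNNGC in a promoter had a median of -0.05. Those with a run of 6 CA dinucleotides on either strand, an alternating sequence of the kind that can form Z-DNA, numbered 22 with a median of -0.03. That repeat was in 1.01% of promoters and in a promoter of 1.16% of genes, and all 120 tested genes with it had a median of -0.02.

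The genes with the smallest p-values in each direction were read out because edgeR with the filter on low counts called none (0). Zfp950, a zinc finger gene, had 43.8 and 45.1 CPM in flox-labelled and 17.0 and 10.2 CPM in wt-labelled libraries, a log2 fold change of 1.70 with an interval of 1.21 to 2.19 (edgeR adjusted p = 0.0539). The other 12 libraries held 47.3 to 77.4 CPM, so both pairs lay below that range, the wt-labelled pair by more. Grk5, a kinase of G protein-coupled receptors, had 72.0 and 85.0 CPM in flox-labelled and 41.0 and 23.5 CPM in wt-labelled libraries, a log2 fold change of 1.28 (adjusted p = 0.135), and 48.4 to 141 CPM in the other 12. The spans of Zfp950 (chr19:61053840-61140840, minus strand) and Grk5 (chr19:60889749-61095968, plus strand), introns included, overlap by 42129 bases. Reads without strand cannot be told apart where exons of both genes overlap, and whether any exons do was not examined. None of the other 9 tested genes within 1 Mb of Zfp950 had an unadjusted p under 0.05 in edgeR (0).

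Col6a1, a chain of collagen VI, had 274 and 253 CPM in flox-labelled and 143 and 115 CPM in wt-labelled libraries, a log2 fold change of 1.03 (edgeR adjusted p = 0.0894). The 130 to 577 CPM of the other 12 libraries include the flox-labelled pair. Cyp2d9, a cytochrome P450, had 15.9 and 14.0 CPM in flox-labelled and 0.425 and 0.465 CPM in wt-labelled libraries, where each wt-labelled value rests on 2 reads. Rgcc, a cell cycle regulator, had 51.9 and 36.2 CPM in flox-labelled and 9.78 and 13.0 CPM in wt-labelled libraries, with adjusted p of 0.154 for both genes.

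In the other direction, Hspa1a, the inducible heat shock protein of the HSP70 family, had 191 and 182 CPM in flox-labelled and 364 and 319 CPM in wt-labelled libraries, a log2 fold change of -0.88 (edgeR adjusted p = 0.231). The other 12 libraries held 168 to 301 CPM, so the wt-labelled pair lay above all of them and the flox-labelled pair among them. Cd4, the T cell coreceptor, had 19.7 and 16.8 CPM in flox-labelled and 46.1 and 59.6 CPM in wt-labelled libraries, and it is in the Aire-induced set, as are Hyou1 and Col6a1. Hyou1, a chaperone of the endoplasmic reticulum, had 28.0 and 28.1 CPM in flox-labelled and 47.4 and 73.5 CPM in wt-labelled libraries. Rps12, a ribosomal protein gene, had 144 and 142 CPM in flox-labelled and 197 and 300 CPM in wt-labelled libraries, and Pof1b had 4.27 and 2.65 CPM in flox-labelled and 9.56 and 10.7 CPM in wt-labelled libraries. The edgeR adjusted p of these 4 genes was 0.353 or 0.354.

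Zfp950 and Col6a1 were also 2 of the genes that DESeq2 called, with adjusted p of 1.61e-06 each. Its 26 calls further held Grk5, Rgcc, Hspa1a, Rps12, Cd4 and Hyou1, the interferon-induced genes Irf7 and Oasl2, the contractile genes Acta2 and Myl9, and 7 predicted genes with Gm names. Genes outside the smallest p-values are named here after their values were seen. The predicted genes include Gm10800 and Gm10801 on chromosome 2, at chr2:98666547-98667301 and chr2:98662237-98664083. Gm10800 had 5703 and 5127 CPM in flox-labelled and 8975 and 16931 CPM in wt-labelled libraries, and 14740 to 43902 CPM in the other 12. The flox-labelled pair was the lowest of all 16 libraries, and the 2 wt-labelled libraries themselves differed widely. The edgeR adjusted p of Gm10800 was 0.142, and repeated or near-identical copies of such sequence make its counts uncertain.

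**Figure D5:**
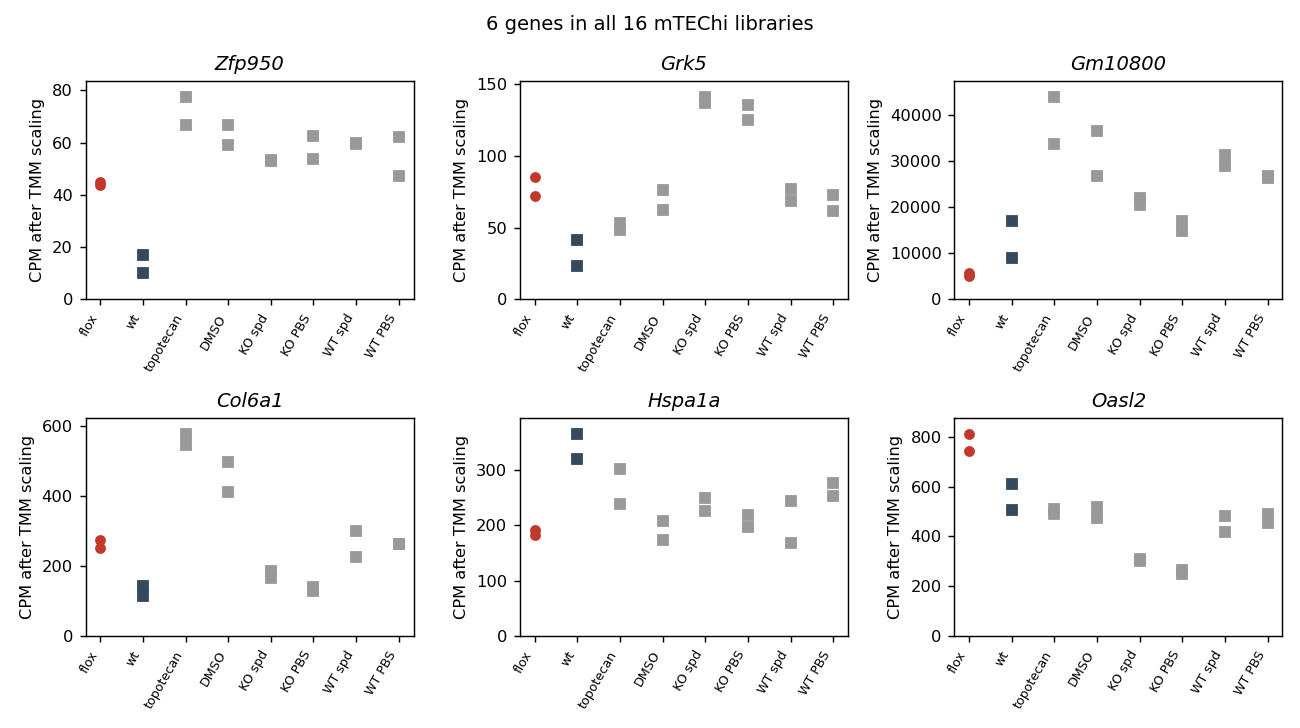
Level in CPM after TMM scaling of 6 genes in each of the 16 mTEChi libraries; red circles are flox-labelled, dark squares wt-labelled and grey squares the other groups, where spd is spermidine. Zfp950 is lowest in the wt-labelled pair (17.0 and 10.2 CPM), Gm10800 is lowest in the flox-labelled pair (5703 and 5127 CPM), and Oasl2 is highest in the flox-labelled pair (742 and 811 CPM).

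Among the lists of other pathways none had a gene called by edgeR with the filter on low counts (0), and the members below were named after their values were seen. Of 22 tested interferon-response genes, 10 were higher and 1 lower at unadjusted p under 0.05, beside 2.41% higher and 2.87% lower among all tested genes, and the median log2 fold change was 0.29. Without the filter edgeR called Ifi27l2a (adjusted p = 0.00212) and Ifit3 (adjusted p = 0.00699) higher. Their summed level was 4380 and 4250 CPM in flox-labelled and 3401 and 3415 CPM in wt-labelled libraries, and 2384 to 3773 CPM in the other 12. Irf7, the interferon-induced transcription factor, had 293 and 225 CPM in flox-labelled and 171 and 170 CPM in wt-labelled libraries, a log2 fold change of 0.61 (edgeR adjusted p = 0.371). Oasl2, of the oligoadenylate synthetase family, had 742 and 811 CPM in flox-labelled and 506 and 609 CPM in wt-labelled libraries, and the chemokine Cxcl10 ran the other way, with 232 and 271 CPM in flox-labelled and 324 and 372 CPM in wt-labelled libraries. The MHC class I gene H2-T23 had 344 and 333 CPM in flox-labelled and 265 and 266 CPM in wt-labelled libraries.

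Of 13 tested genes of tuft-like mTEC, cells that share genes with chemosensory tuft cells of the gut, 5 were lower and none higher at unadjusted p under 0.05, where 2.87% of all tested genes were lower, with a median of -0.58. Trpm5, their taste-transduction channel, had 56.6 and 79.9 CPM in flox-labelled and 132 and 131 CPM in wt-labelled libraries. Il25, the tuft cell cytokine, had 0.474 and 0.707 CPM in flox-labelled and 4.25 and 8.61 CPM in wt-labelled libraries. The flox-labelled values of Il25 rest on a few reads, so the size of its difference is uncertain. The summed level was 444 and 521 CPM in flox-labelled and 702 and 774 CPM in wt-labelled libraries. Of the other 12, the Aire-KO libraries held 405 to 632 CPM and the WT libraries 710 to 1546 CPM. The flox-labelled pair lay below all of these WT libraries and within the Aire-KO range. The wt-labelled library at 702 CPM also lay just below these WT libraries. The smallest edgeR adjusted p of the list was 0.381, for Il25. Without the filter on low counts edgeR called Plcb2 (adjusted p = 2.88e-05), Trpm5 (adjusted p = 0.000316) and Gnat3 (adjusted p = 0.00486) lower, and DESeq2 called none of the list (0). Il25 had no DESeq2 adjusted p.

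Of 16 tested stress-chaperone genes, 5 were lower at unadjusted p under 0.05, where 2.87% of all tested genes were: Hspa1a, Hspa1b, Hsph1, Dnajb1 and Hsp90aa1. The median of the 16 was -0.11. Their summed level was 8864 and 8801 CPM in flox-labelled and 10104.5 and 8623 CPM in wt-labelled libraries, so the groups overlapped. Hsph1 had 114 and 142 CPM in flox-labelled and 226 and 186 CPM in wt-labelled libraries. Other chaperone genes of the list, Hspa8, Hspb1, Bag3 and Hspa5, stood at -0.17, -0.04, 0.23 and 0.05 on the log2 scale. Of 32 cell cycle genes 14 had both flox-labelled values below both wt-labelled ones, where 17.4% of all tested genes did, and 2 were lower at unadjusted p under 0.05. Their median was -0.37, and Tpx2, a spindle assembly factor, had 64.2 and 56.2 CPM in flox-labelled and 115 and 88.6 CPM in wt-labelled libraries. The 24 proteasome subunits and 19 oxidative phosphorylation genes all had intervals within 2-fold, with medians of 0.05 and 0.01.

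Levels of markers of other cells were as follows. None passed the edgeR test with the filter on low counts (0), and their part in the results above was not tested. Counts below are at unadjusted p under 0.05, where 2.41% of all tested genes were higher and 2.87% lower. Of 6 tested erythroid genes 3 were lower at unadjusted p under 0.05, and their summed level was 87.2 and 132 CPM in flox-labelled and 238 and 307 CPM in wt-labelled libraries, within 35.5 to 344 CPM in the other 12. The globin gene Hbb-bs had 12.3 and 33.8 CPM in flox-labelled and 113 and 160 CPM in wt-labelled libraries. Of 15 tested thymocyte genes 2, Cd4 and Trbc1, were lower, and the sums were 135 and 87.9 CPM in flox-labelled and 154 and 168 CPM in wt-labelled libraries, beside 113 to 438 CPM in the other 12. Of 10 fibroblast genes 3, Col6a1, Col6a2 and Pdgfra, were higher, and the sums were 595 and 566 CPM in flox-labelled and 371 and 418 CPM in wt-labelled libraries, beside 401 to 2233 CPM. Of the other fibroblast genes, Dcn stood at 0.07 on the log2 scale, and the collagen gene Col1a1 had 25.8 and 24.0 CPM in flox-labelled and 30.8 and 55.6 CPM in wt-labelled libraries. Col3a1, another collagen gene, had 1.66 and 3.18 CPM in flox-labelled and 9.99 and 20.9 CPM in wt-labelled libraries, and edgeR without the filter called it lower (adjusted p = 2.2e-13). That fit called Col6a1 (adjusted p = 1.24e-07) and Col6a2 (adjusted p = 7e-04) higher. In the other marker lists it called 3 erythroid genes and Cd4 lower and Ctsl higher. DESeq2 called Col6a1, Col6a2 and Ctsl higher and Cd4 lower. Of 9 cortical epithelial genes 2, Ctsl and Cxcl12, were higher, and the sums were 1922 and 1837 CPM in flox-labelled and 1268 and 1584 CPM in wt-labelled libraries, beside 1283 to 2553 CPM. Myeloid markers were detected in both groups: the 11 myeloid genes summed to 1241 and 1168 CPM in flox-labelled and 1340 and 1384 CPM in wt-labelled libraries, beside 1264 to 1842 CPM, most of it from Lyz2, lysozyme, with 1049 and 974 CPM in flox-labelled and 1098 and 1156 CPM in wt-labelled libraries. None of 7 B cell, 11 myeloid and 6 endothelial genes had an unadjusted p under 0.05 (0 in each list, edgeR).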

How the data were processed

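RNA of 1000 sorted mTEChi per library was amplified by Smart-seq2 and tagmented with Nextera XT, per the labels' protocols, without molecular identifiers or strand. The authors deposited raw counts per gene for mTEChi, and expected counts per transcript for Aire-GFP+ cells. The submitters' processing notes list build mm10 and, without roles, featureCounts, kallisto, SAMtools 1.3.1, STAR and TopHat2 2.1.1. Of 118489 transcripts 116816 matched a gene in GENCODE M21 and were summed to 35999 genes and rounded. Unused columns of per-sample values numbered 0.

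Counts of 55011 genes in 16 mTEChi libraries were fitted with edgeR 4.0.16 in R 4.3.3 (TMM, filterByExpr, quasi-likelihood, 1 mean per group, Benjamini-Hochberg adjustment over 18418 genes), and a call was an adjusted p under 0.05. The standard error is the log2 fold change divided by the square root of its F statistic. The biological coefficient of variation was 0.269. Alternatives changed the scaling, the filter or the test (voom in limma 3.58.1, DESeq2 1.42.0), added a replicate block or left out a library. The procedure was tested on simulated data.

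Named genes are Nfe2l2, Aire, Keap1 and Top1, the 5 smallest p-values per direction outside predicted names, all NRF2 targets, and up to 2 of the most abundant members of other lists; genes beyond these are said to be chosen after their values were seen. Members and lists were chosen with earlier results of these data known. Annotation and coordinates are GENCODE M21 (GRCm38).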

Additional observations from a re-analysis of the deposited data

How the results depend on the processing

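The number of genes called depended on the fit. It was 0 with DESeq2's size factors and with limma-voom (975 and 1434 genes at unadjusted p under 0.05), 1 with library totals alone and 1 with a minimum mean of 5 CPM, both Zfp950. It was 134 with no filter on low counts, of which 131 are in the filtered table and 22 are shared with DESeq2, and 26 with DESeq2. The 4 Foxn1-Cre libraries alone gave 1, Myoc. Replicate numbers did not pair the libraries (r = 0.09 over 13868 genes), and a replicate block gave 3, Zfp950, Col6a1 and Gm17535. Leaving out 1 library gave 0 to 11 calls, 11 of them without wt-labelled replicate 1 and 0 in the other 3 cases. NRF2 targets called lower numbered 0 in every alternative run except no filter, with 1, Cyp2a5; no filter also called Aldh3a1 higher (edgeR adjusted p = 0.0121). The median of the Aire-induced set was -0.12 without flox-labelled replicate 2, and single libraries left out gave -0.12 to 0.06; the set from PBS mTEChi gave 0.05.

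With 1 library left out, the log2 fold change of Nfe2l2 ran from -0.07 (without flox-labelled replicate 1) to 0.21, that of Aire from -0.18, of G6pdx to 0.33, of Hmox1 to 0.18, of Prdx1 from -0.26, of Slc7a11 to 0.45, of Srxn1 from -0.35, of Top1 from -0.15 and of Txnrd1 to 0.29. The opposite ends had the other sign: without flox-labelled replicate 1, Aire 0.01, G6pdx -0.20, Hmox1 -0.09, Srxn1 0.07 and Top1 0.04; without flox-labelled replicate 2, Prdx1 0.05 and Txnrd1 -0.01; without wt-labelled replicate 1, Hmox1 -0.14, Prdx1 0.04, Slc7a11 -0.06 and Top1 0.13; without wt-labelled replicate 2, Srxn1 0.37; in limma-voom, Srxn1 0.02; with no filter, Top1 0.01. The cause was not tested. A group left with 1 library was assumed to vary like the others, and intervals were wide for genes under 20 CPM.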
